A study of Mus musculus with 8 samples.

Results

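Atoh1, Barhl1, Nhlh1, Nhlh2, Insm1, Neurod1, Neurod2 and Pax6 are 8 transcription factor genes that mark steps of granule neuron development in the cerebellum. They were chosen by symbol, and 8 of 8 were found among the 20608 symbols of the bulk count table and in both single-cell matrices, which list 27998 genes. All libraries came from brain tumours of mice described as Patched 1 deficient. All groups thus share this defect, and there is no group without it. The labels do not say which allele or driver made it. One single-cell library is of a primary tumour and the other of a relapsed tumour from 3 weeks. The title and source label of the latter say relapsed and were followed, but its description names a primary tumour, a doubt that touches every comparison of the 2 tumours. The bulk libraries are of flow-sorted cells labelled astrocytes, 3 from stroma A and 3 from stroma B. The study set out to compare tumour makeup and astrocyte expression between primary and relapsed tumours, but no label ties stroma A or stroma B to either of these. Neither ages nor numbers of animals are given, and nothing says that libraries of a group came from separate animals, so p-values measure the spread between these libraries, which may be technical.

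Patched 1 restrains Hedgehog signalling in the absence of its ligand, and its loss lets granule neuron precursors keep dividing and form medulloblastoma. Atoh1 is the basic helix-loop-helix (bHLH) factor that sets up these precursors and keeps them responsive to Sonic hedgehog, and it is switched off as they leave the cell cycle. Neurod1, Neurod2, Nhlh1 and Nhlh2 are bHLH factors of differentiating granule neurons, Insm1 is a zinc finger factor of dividing neuronal progenitors, Barhl1 is a homeobox factor of granule cells known as a target of Atoh1, and Pax6 is a paired box factor of the whole granule lineage.

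On mm10 in GENCODE M21 the genes lie at chromosome 6, 64729125–64731245 (Atoh1), chromosome 2, 28907679–28916668 (Barhl1), chromosome 1, 172052292–172057573 (Nhlh1) and chromosome 3, 102010076–102015492 (Nhlh2). Insm1 (146221921–146225020), Neurod1 (79452521–79456751) and Pax6 (105668900–105697364) lie on chromosome 2, and Neurod2 on chromosome 11 (98325415–98329648). Neurod1 overlaps Cerkl on its own strand and Gm26755 on the other, and Pax6 overlaps Pax6os1 on the other strand. No strand setting is given for the bulk counts, so their reads cannot be told apart from those of their partners.

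The bHLH factors pair with E proteins and bind E-boxes, whose letters are CANNTG. RefSeq's promoter table for GRCm38.p6 held 7 of the 8 genes, all but Insm1. The stretch before the start is shown for 4 members with different courses along the path to the granule neuron described further on: the precursor factor Atoh1, the steady Barhl1 and the late Nhlh1 and Neurod2. Capitals mark every E-box, found on either strand because the motif is its own reverse complement in form. The windows are chr6:64728875-64729124 on the plus strand for Atoh1 and, on the minus strand, chr2:28916669-28916918 for Barhl1, chr1:172057597-172057846 for Nhlh1 and chr11:98329649-98329895 for Neurod2.
Atoh1: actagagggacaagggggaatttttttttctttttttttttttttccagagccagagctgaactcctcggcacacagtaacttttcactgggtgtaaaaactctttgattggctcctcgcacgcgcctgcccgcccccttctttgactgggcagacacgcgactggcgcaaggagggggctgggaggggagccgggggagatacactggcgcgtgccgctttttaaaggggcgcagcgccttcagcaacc
Barhl1: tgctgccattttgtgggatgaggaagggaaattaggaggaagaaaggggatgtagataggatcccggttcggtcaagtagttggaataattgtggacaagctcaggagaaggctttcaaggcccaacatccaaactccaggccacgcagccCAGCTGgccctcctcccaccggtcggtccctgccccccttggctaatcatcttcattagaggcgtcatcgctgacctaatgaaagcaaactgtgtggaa
Nhlh1: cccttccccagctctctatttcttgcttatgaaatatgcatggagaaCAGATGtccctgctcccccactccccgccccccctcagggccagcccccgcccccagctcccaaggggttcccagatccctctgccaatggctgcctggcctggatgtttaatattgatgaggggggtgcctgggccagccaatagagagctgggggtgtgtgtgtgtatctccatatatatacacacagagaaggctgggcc
Neurod2: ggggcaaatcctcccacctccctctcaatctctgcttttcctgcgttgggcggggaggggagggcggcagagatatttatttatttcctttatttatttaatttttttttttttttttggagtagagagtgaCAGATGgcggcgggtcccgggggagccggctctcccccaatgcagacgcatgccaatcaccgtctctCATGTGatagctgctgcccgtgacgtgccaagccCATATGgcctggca
Atoh1 held no E-box in these 250 bases. Barhl1 held 1, with the letters CAGCTG, which 4271 of all 32851 promoters of this length (13%) hold. Nhlh1 held 1 and Neurod2 held 3, and both have the letters CAGATG or CATCTG, which 14.4% of promoters hold. Neurod2 also had CATATG, held by 3.46%. Any E-box was in 7 of the 9 windows listed for these genes and in 66.2% of all promoters. These matches describe letters only, and no binding was measured.

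The bulk libraries held 6718165 to 11798735 reads. Summed over the marker lists, markers of oligodendrocyte precursors stood at 10137 to 18769 CPM (reads of a gene scaled to the size of its library) in all stroma A libraries and in stroma B library 3, above the astrocyte markers of the same libraries (1321 to 2886 CPM). In stroma B libraries 1 and 2 the order was the other way, with 1945 and 2002 CPM of oligodendrocyte precursor markers against 5839 and 8708 of astrocyte markers. None of the 11 astrocyte markers was at 0 in all libraries. The single-cell libraries held 9164 barcodes with a median of 5404 unique molecular identifiers (UMIs) in the primary and 7852 with a median of 7230.0 in the relapsed tumour, and 93 barcode sequences occurred in both. After filtering, 7390 of 8548 primary cells (86.5%) and 6919 of 7368 relapsed cells (93.9%) fell in clusters of the granule lineage, which includes the tumour cells. Another 593 primary (6.94%) and 148 relapsed cells (2.01%) were left unnamed. Their clusters had 3 granule lineage markers each but fell short of the gene number rule given under processing, so the 2 shares depend on that rule.

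All 8 genes had higher mean levels in stroma B than in stroma A, but none passed the test across genes. Levels here are CPM with TMM factors, given for libraries 1, 2 and 3 of each group, and the plot of levels in sorted libraries shows every value.

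**Figure D1:**
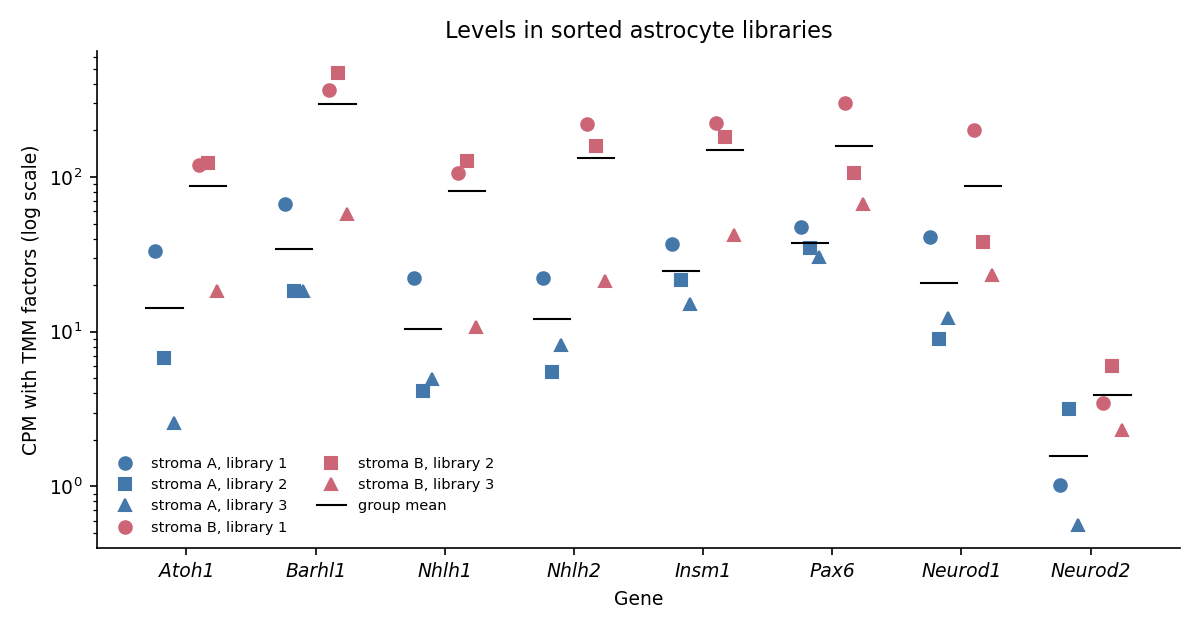
CPM with TMM factors (log scale) of the 8 genes in each sorted library, with marker shapes for library number and black lines for the group means of 3 libraries. Stroma B library 3 lies close to stroma A library 1, and for 2 genes, Insm1 and Pax6, all stroma B libraries lie above all stroma A libraries.

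Atoh1 had 33.3, 6.74 and 2.58 CPM across the stroma A libraries and 119, 124 and 18.2 CPM across those of stroma B. Stroma B libraries 1 and 2 were high, and library 3 lay below stroma A library 1, so the groups overlapped. The log2 fold change of stroma B over stroma A was 2.61 (SE 1.04, edgeR quasi-likelihood adjusted p = 0.207), and 4.30 without stroma A library 1, the highest of its group.

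Barhl1 had 66.6, 18.4 and 18.2 CPM in stroma A and 363, 467 and 57.7 CPM in stroma B. Its log2 fold change was 3.10 (SE 0.86, adjusted p = 0.122 in edgeR). Its order of libraries was that of Atoh1, with stroma B library 2 highest and library 3 within the range of stroma A. Without stroma A library 1 it was 4.09.

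Nhlh2 had the largest log2 fold change of the 8, and its relative Nhlh1 the third largest. Nhlh1 had 22.2, 4.13 and 4.94 CPM in stroma A and 106, 127 and 10.7 CPM in stroma B (log2 fold change 2.96, SE 1.01, edgeR adjusted p = 0.164). Nhlh2 had 22.4, 5.51 and 8.20 CPM against 221, 158 and 21.2 CPM (3.47, SE 0.91, edgeR adjusted p = 0.115). In both, stroma B library 3 was lower than stroma A library 1, and without the latter the log2 fold changes were 4.24 (Nhlh1) and 4.36 (Nhlh2).

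Insm1 gave 37.0, 21.7 and 15.1 CPM in stroma A, against 223, 180 and 42.1 CPM in stroma B. Here the groups did not overlap, though library 3 of stroma B was close to library 1 of stroma A. The log2 fold change was 2.59 (SE 0.63, edgeR adjusted p = 0.108), the smallest adjusted p of the 8 genes.

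Pax6 was measured at 47.2, 34.8 and 30.6 CPM against 302, 106 and 67.0 CPM in stroma B, again without overlap (log2 fold change 2.07, SE 0.55, edgeR adjusted p = 0.118). Its stroma A libraries stood at 37.5 ± 8.66 CPM (SD, n = 3). Stroma B library 1 was far above the other 2 of its group, and without it the log2 fold change was 1.22.

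Neurod1 gave 40.8, 8.95 and 12.4 CPM in stroma A and 202, 38.2 and 23.2 CPM in stroma B. It was high in stroma B library 1 alone, and libraries 2 and 3 lay below stroma A library 1. Its log2 fold change was 2.08 (SE 0.93, edgeR adjusted p = 0.245). It was 3.13 without stroma A library 1, 0.58 without stroma B library 1 and 0.30 without both libraries whose titles share a number, of which that library is 1.

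Neurod2 was the lowest in level, with 1.03, 3.17 and 0.562 CPM against 3.44, 6.03 and 2.30 CPM in stroma B (log2 fold change 1.31, SE 0.81, edgeR adjusted p = 0.373). The lowest of these values rests on 5 reads, and without stroma A library 2 the log2 fold change was 2.29.

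Of the 8 genes, 0 were called at an adjusted p under 0.05, where 0.388% of the 14176 genes tested were called higher in stroma B and 3095 genes had an unadjusted p under 0.05. Groups that did not overlap, with stroma B above, were seen in 2 of 8 members and in 14.2% of all genes. The median log2 fold change of the 8 was 2.60, against −0.03 over all genes. The call turned on the test and on 1 library: DESeq2 called 6 of 8, all but Neurod1 (adjusted p = 0.0621) and Neurod2 (0.331), where it called 4.13% of genes higher. Without stroma B library 3, edgeR called 5 of 8 (Barhl1, Nhlh1, Nhlh2, Insm1 and Pax6, adjusted p between 0.0116 and 0.0297), again against 4.13% of genes.

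Scaled for length as the authors' FPKM (fragments scaled to transcript length and library size), Pax6 was the highest of the 8 in 4 of the 6 libraries and Barhl1 in 2 of them. Barhl1 reached 52.6 FPKM in stroma B library 2. Neurod2 was lowest in all 6 libraries, at 0.719 FPKM or less.

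Markers of the granule lineage moved with these genes. Their summed level was 925, 450 and 686 CPM in stroma A and 5446, 4043 and 853 CPM in stroma B, with 0 of 17 tested markers called. Their part in the result was not tested, and in bulk samples fewer cells of a type and less RNA per cell cannot be told apart. Per 1000 CPM of granule markers, Insm1 stood at 22.0 to 48.3 CPM in stroma A and 41.0 to 49.4 in stroma B, and Atoh1 at 3.77 to 36.0 and 21.4 to 30.6, so these ranges overlapped. Nhlh2 narrowly did not overlap on that scale, at 24.2 or less in all stroma A libraries and at 24.9 to 40.6 in stroma B. The share of all genes without overlap on that scale was not counted. On plain CPM, stroma B lay above stroma A without overlap in 14.2% of genes. Per the same unit Neurod1 was lowest in stroma B library 2 (9.45) and highest in stroma A library 1 (44.2).

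Several further marker lists differed between the groups, and what they contribute to the result was not tested. Summed astrocyte markers were at 1321 to 2748 CPM in stroma A and 2886 to 8708 CPM in stroma B. Summed oligodendrocyte markers were at 1400 to 2327 CPM in stroma A and 189 to 708 CPM in stroma B. Without overlap, 7 of 7 lay below stroma A, and 0 were called. Over all genes, 27.2% had groups without overlap in either direction, and 14.2% had stroma B above. Microglia and macrophage markers ranged from 32.3 to 2742 CPM in stroma A and from 34.5 to 129 CPM in stroma B, with 0 of 11 called. Endothelial markers ranged from 55.6 to 840 and from 39.8 to 85.6 CPM, with 1 of 8 called lower, against 0.275% of genes. Of the 6 cycling genes 5 were called higher in stroma B, against 0.388% of genes, with edgeR adjusted p between 0.0407 and 0.0499, close to the threshold. When any 1 library other than stroma B library 3 was left out, edgeR called 0 genes in the whole table.

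Single-cell levels were compared within the granule lineage, where each library had clusters of its own: 7 clusters held nearly all primary cells and 6 others nearly all relapsed cells. The clusters were built without these 8 genes. With 1 library per condition there is no test, and the 95% intervals cover counting error only (exact Poisson for CPM, exact Clopper-Pearson for shares of cells). Levels are CPM of UMIs summed over cells, with shares of cells given after each cell was thinned to 2000 UMIs, a depth all of these cells had.

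Atoh1 and Insm1 were higher in the relapsed tumour and Nhlh1 was lower. Atoh1 stood at 166 CPM (163–170) in the primary and 239 CPM (235–243) in the relapsed tumour, and was detected in 24.6% and 34.0% of thinned cells. Insm1 stood at 186 CPM (182–190) and 297 CPM (292–301), in 29.0% and 43.1% of cells. Nhlh1 stood at 97.9 CPM (95.0–101) and 52.6 CPM (50.7–54.5), in 19.2% and 11.5% of cells, a log2 ratio of relapsed over primary of −0.90.

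Barhl1 was at 481 and 644 CPM, a log2 ratio of 0.42, and was detected in 60.3% and 68.5% of cells. Nhlh2 was at 215 and 190 CPM, and Neurod2 at 17.6 and 22.8 CPM. Pooled over all granule lineage cells, Neurod1 (269 and 280 CPM) and Pax6 (250 and 257 CPM) were nearly level, with log2 ratios of 0.06 and 0.04. After thinning the log2 ratio of Neurod1 was 0.013 (−0.044 to 0.069), and that of Pax6 changed sign, to −0.078. Within each of the 5 path steps described further on, the unthinned levels of both genes were higher in the relapsed tumour. None of the 8 reached a 2-fold difference in either direction, as 6.04% of the 6076 genes at 20 CPM or more did.

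These genes were also detected in cells of other types, as free RNA in droplets can give, and the shares differed between types. In thinned astrocyte-like cells, Barhl1 was in 27.4% (primary) and 9.71% (relapsed), and Pax6 in 20.4% and 22.3%. The microglia and macrophage-like cells are taken as the background here. In the 214 microglia and macrophage-like cells of the primary tumour (median 6120.0 UMIs, against 5620.0 in its granule lineage), thinned shares were 2.80% for Atoh1, 5.61% for Neurod1, 0.467% for Neurod2 and 11.7% for Barhl1. Nhlh1 was seen in 0 of these cells at that depth, which by 3 counts of the total allows a share of thinned cells of up to 1.40%. Unthinned, 5.61% of them had an Nhlh1 UMI. The relapsed library had 30 such cells (median 11145.5 UMIs), and a thinned count of 0, as for Atoh1 and Neurod1, allows up to 10.0% by the same rule. Unthinned, 6.67% of them had Atoh1 and 13.3% Neurod1. The granule lineage shares given above lie above those of the primary background.

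Outside the granule lineage each gene was also set against Barhl1, the most abundant of the 8 in both libraries. These ratios differed between cell classes, and the part of free RNA in them was not tested. Pax6 gave 0.519 UMIs per Barhl1 UMI (0.507–0.531) in the primary granule lineage and 0.288 (0.197–0.412) in the microglia and macrophage-like cells. In the 208 oligodendrocyte precursor-like cells it gave 1.02 (0.666–1.57), and in astrocyte-like cells 0.739 (0.578–0.943) in the primary and 1.26 (1.00–1.58) in the relapsed tumour, where the granule lineage had 0.400. Insm1 gave 0.875 UMIs per Barhl1 UMI (0.683–1.12) in the 122 pituitary endocrine-like cells of the relapsed library, against 0.461 (0.452–0.469) in its granule lineage. It was also higher in astrocyte-like cells, at 0.643 (0.490–0.842) in the relapsed tumour and at 0.578 (0.443–0.750) in the primary, where the granule lineage had 0.387. In the 22 fibroblast-like cells of the relapsed library it was 0.769 (0.407–1.43), an interval that holds the granule lineage value. Pax6 is also made by astrocytes and Insm1 by endocrine cells, as is known from other work.

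To place the genes along differentiation, granule lineage cells were ordered by a score of 10 neuron genes minus 9 precursor genes, none of them among the 8, and divided into 5 steps with the same limits in both libraries. Step 1 is the precursor end. Steps held 1277 to 1807 primary and 1077 to 1572 relapsed cells. Cells that detected cycling genes made up 47.3% of step 1 and 9.08% of step 5 in the primary tumour and 47.0% and 12.6% in the relapsed tumour. Depth was lower at the end, with median UMIs of 6485.5 in step 1 and 4264.0 in step 5 of the primary and 7689.5 and 4929.0 in the relapsed tumour; its part in the levels was not tested, and shares of cells are at equal depth.

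**Figure D2:**
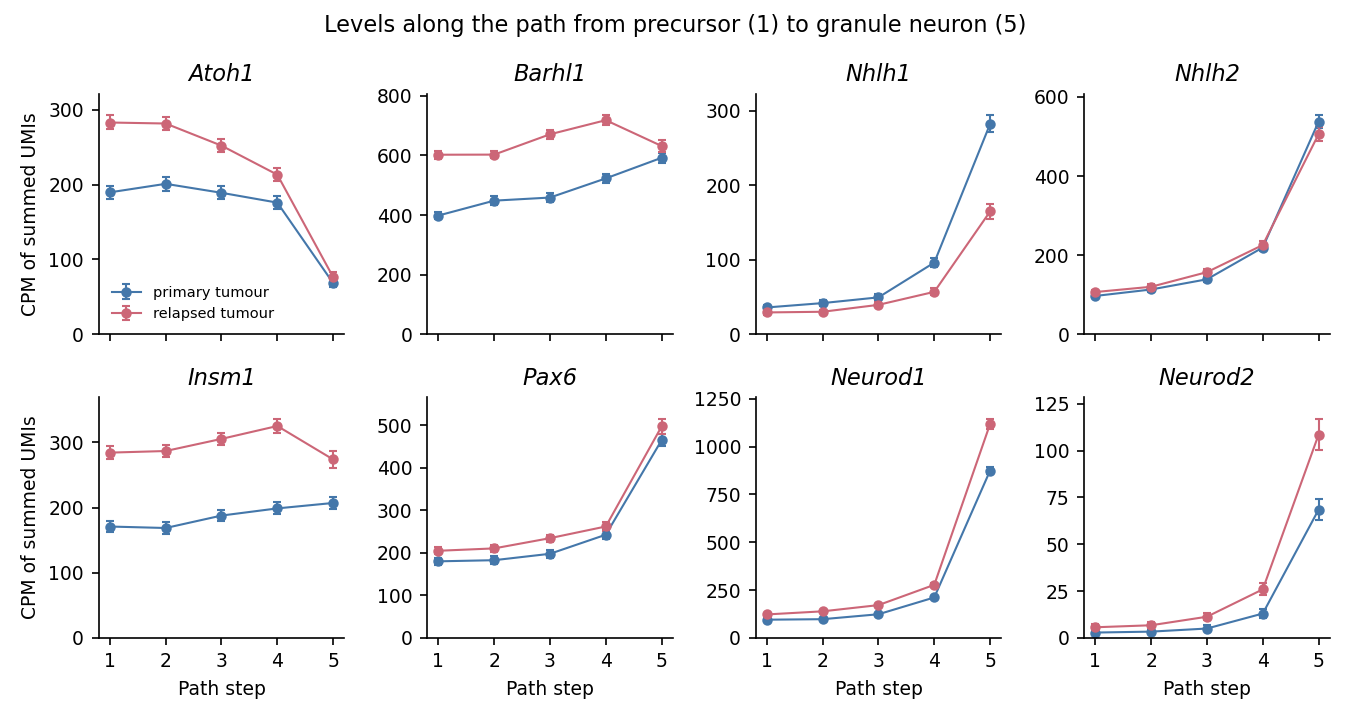
CPM of summed UMIs for each gene in the 5 path steps from precursor to granule neuron, with exact Poisson 95% intervals that cover counting error only, in the primary (blue) and the relapsed tumour (red). Atoh1 is lowest in step 5, while Neurod1, Neurod2, Nhlh1, Nhlh2 and Pax6 are highest there in both libraries.

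Atoh1 was lowest in the last step of both tumours. In the primary tumour it stood at 190, 201, 189, 176 and 68.3 CPM in steps 1 to 5, and in the relapsed tumour at 283, 281, 252, 213 and 76.4 CPM. The first 3 primary steps were close, while in the relapsed tumour steps 3 and 4 already lay below step 1, with intervals apart (273–292, 243–261 and 205–222 CPM in steps 1, 3 and 4). The log2 ratio of the last over the first step was −1.47 (−1.61 to −1.34) and −1.89 (−2.03 to −1.75). At equal depth 31.1% of primary cells detected Atoh1 in step 1 and 9.80% in step 5, the latter still above the 2.80% in microglia and macrophage-like cells. The tumours lay apart in steps 1 to 4, and in step 5 their intervals met (62.9–74.1 and 69.7–83.5 CPM).

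Neurod1 had the opposite course. Its primary levels were 94.8, 97.5, 123, 211 and 874 CPM, and its relapsed levels were 122, 139, 171, 277 and 1118 CPM. The relapsed level was higher in every step, with intervals apart (855–894 and 1092–1144 CPM in step 5). Step 5 held 24.5% of the primary and 15.6% of the relapsed cells, and its part in the nearly level pooled values was not tested. The log2 ratios of the last over the first step were 3.21 (3.11 to 3.30) and 3.19 (3.11 to 3.27). Already in step 1, 16.3% of primary cells had a Neurod1 UMI at equal depth, against 5.61% in microglia and macrophage-like cells, and 67.8% did in step 5.

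Neurod2 had the largest ratios but the lowest levels, from 2.82 to 68.4 CPM in the primary and from 5.64 to 109 CPM in the relapsed tumour (log2 ratios 4.60 and 4.27). Its share in step 1 of the primary tumour, 0.351% of cells, was no higher than the 0.467% of the background and is not read as expression. That background is 1 of 214 cells (0.0118–2.58%), an interval that also holds the 1.32% of relapsed step 1. The relapsed background of 0 of 30 cells allows up to 10.0%. Both ratios divide by these first steps, so their sizes are uncertain. In step 5 the shares were 13.2% and 18.5%.

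Nhlh1 and Nhlh2 were highest in step 5 too. Nhlh1 stood at 36.0, 41.9, 49.6, 96.3 and 282 CPM in the primary and at 29.3, 30.2, 39.5, 57.0 and 165 CPM in the relapsed tumour, with log2 ratios of 2.97 and 2.49. Its difference between the tumours was largest in the late steps: the step 5 shares at equal depth were 43.3% (41.0–45.6) and 28.2% (25.6–31.0), while those of step 1 were 6.60% and 6.83%. Nhlh2 stood at 96.9, 113, 139, 219 and 538 CPM and at 107, 120, 157, 226 and 506 CPM, with log2 ratios of 2.47 and 2.24. For this gene the tumours lay close together in every step.

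Pax6 began at a higher level and changed less, from 180 to 465 CPM in the primary and from 205 to 498 CPM in the relapsed tumour (log2 ratios 1.37 and 1.28). Most of the difference lay between steps 4 and 5, where it stood at 243 and 465 CPM in the primary tumour.

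Barhl1 and Insm1 were the flat genes of the group. Barhl1 was at 398, 448, 459, 523 and 592 CPM in the primary and at 602, 603, 671, 718 and 632 CPM in the relapsed tumour, with log2 ratios of 0.57 and 0.07. Insm1 was at 171, 169, 188, 199 and 207 CPM and at 284, 287, 305, 325 and 274 CPM. The log2 ratio of Insm1 was 0.28 (0.18 to 0.37) in the primary and −0.05 (−0.14 to 0.03) in the relapsed tumour. The low level of Atoh1 in step 5 was thus not seen in Barhl1.

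A 2-fold or larger higher level in the last than in the first step was seen in 5 of 8 members in both libraries, against 10.1% of genes at 20 CPM or more in each, counted with 1 CPM added to both levels. A 2-fold lower level was seen in 1 of 8, Atoh1, against 7.50% of genes in the primary and 7.55% in the relapsed tumour. Across single clusters the range was wider: over the 7 primary clusters Neurod1 went from 77.7 to 1441 CPM and Atoh1 from 18.5 to 285 CPM, and over the 6 relapsed clusters from 90.6 to 1759 and from 34.6 to 349 CPM.

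Co-detection asks whether 1 cell holds RNA of both the precursor and the neuronal factor. At 2000 UMIs per cell, 358 of 1821 primary cells with Atoh1 also had Neurod1, a share of 19.7% (17.9–21.6), against 37.5% (36.2–38.8) of the cells without Atoh1. In the relapsed tumour it was 545 of 2352 cells, 23.2% (21.5–24.9), against 38.8% (37.4–40.3). Cells with both made up 4.84% of the primary and 7.88% of the relapsed granule lineage. Unthinned, where deeper cells count more, the shares were 46.8% and 61.5%. In the microglia and macrophage-like cells 1 of 214 primary cells and 0 of 30 relapsed cells had both.

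Cells with Atoh1 lie mostly early and cells with Neurod1 mostly late on the path, so the comparison was repeated at an equal mix of steps. With cells without Atoh1 weighted to the same mix of steps as the cells with it, the share with Neurod1 was 27.7% in the primary and 30.0% in the relapsed tumour, still above 19.7% and 23.2%. In step 1 the shares were close, 15.8% (12.5–19.5) in cells with Atoh1 and 16.5% (14.2–19.0) in the rest of the primary tumour, and 18.4% and 19.7% in the relapsed tumour. The gap was widest in step 5, with 42.9% (35.5–50.6) against 70.5% (68.2–72.7) in the primary and 53.5% (44.5–62.4) against 80.3% (77.6–82.8) in the relapsed tumour. An equal mix of steps does not even out position within a step. In step 5 of the primary tumour median path scores were 0.73 (Atoh1 alone), 0.95 (both), 0.82 (neither) and 1.12 (Neurod1 alone). In the relapsed tumour they were 0.71, 0.88, 0.78 and 1.12 in the same order. The part of this in the gap was not tested. Cells with both stayed at 4.21% to 5.25% of each primary step and 6.31% to 8.76% of each relapsed step.

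**Figure D3:**
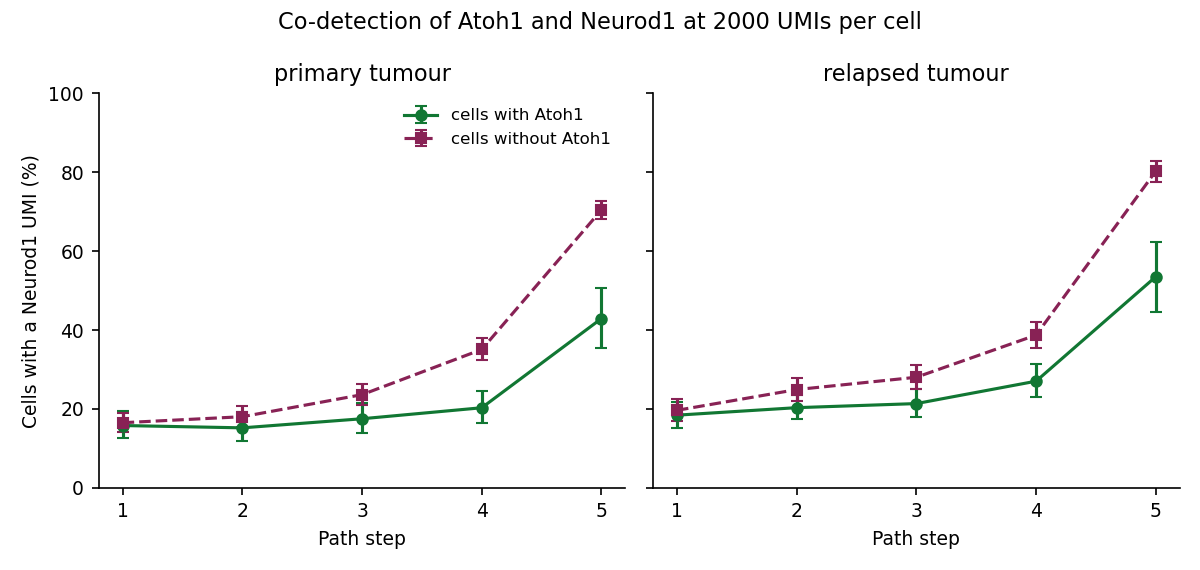
Share of granule lineage cells with a Neurod1 UMI at 2000 UMIs per cell in the 5 path steps, for cells with (circles) and without (squares) an Atoh1 UMI, with exact Clopper-Pearson 95% intervals that cover counting error only. The shares are close in step 1 and lie apart in step 5 in both tumours.

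Of the 28 pairs, 10 are among Neurod1, Neurod2, Nhlh1, Nhlh2 and Pax6, and these were detected together more often than the step mix gives for 10 of 10 pairs in primary cells and for 9 of 10 pairs in relapsed cells, a description with no test. The exception was Neurod2 in relapsed cells with Nhlh1, at 7.82% against 9.37%, a ratio of 0.83. Neurod2 was in 9.60% of primary cells with Neurod1, against 3.95% of other cells of the same step mix, a ratio of 2.43, and the ratio was 1.80 in the relapsed tumour. Neurod1 cells had Pax6 at ratios of 1.43 and 1.41, and Nhlh2 cells had Neurod2 at 1.49 and 1.54. Nhlh1 and Nhlh2 gave 1.24 and 1.26. Excess pairing was not limited to these late genes. Insm1 had ratios of 1.05 to 1.11 with Nhlh1, Nhlh2, Neurod1 and Pax6 over both tumours, but 0.95 and 0.96 with Neurod2. Neurod1, Neurod2, Nhlh1, Nhlh2 and Pax6 were all highest in step 5, and the step mix does not even out position within a step. Atoh1 was detected more often with 1 other member, Barhl1, in 64.7% against 57.5% of primary cells and 73.1% against 66.4% of relapsed cells, while its ratios with the other 6 were 0.44 (Neurod2) to 0.88 (Insm1) in the primary and 0.61 to 0.98 in the relapsed tumour. In the relapsed tumour both Insm1 (42.9% against 43.8%) and Nhlh1 (8.84% against 9.27%) were nearly level.

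Cells with both Atoh1 and Neurod1 lay between the single classes in their shares with Nhlh1, Nhlh2, Neurod2 and Pax6. In the primary tumour Nhlh1 was detected in 9.43% of cells with Atoh1 alone, 16.8% of cells with both and 34.6% of cells with Neurod1 alone, and Nhlh2 in 21.3%, 29.9% and 53.4%. In the relapsed tumour these shares were 7.36%, 13.8% and 20.2% for Nhlh1 and 22.0%, 31.2% and 49.2% for Nhlh2. Insm1 did not lie between in either tumour, and Barhl1 did not in the relapsed tumour. In the primary tumour Barhl1 did, at 65.6%, 60.9% and 59.3% of the same classes. Insm1 was in 25.8%, 24.6% and 33.8% of these classes in the primary and in 41.7%, 46.6% and 43.0% in the relapsed tumour, where Barhl1 was in 72.8%, 73.9% and 65.8%. Cells with both genes detected 3.70 of the 8 on average in the primary and 4.10 in the relapsed tumour, counts that include the pair itself.

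Neurod1 without a detected Atoh1 UMI was also seen in cycling cells. These classes rest on 2000 UMIs per cell, so a cell with Neurod1 alone can still hold Atoh1 RNA. In step 1, Atoh1 was detected in 31.1% of primary and 39.0% of relapsed cells at that depth. Unthinned, it was detected in 63.8% and 80.0%. In step 1 of the primary tumour 58.0% (50.0–65.7) of cells with Neurod1 alone were cycling, against 41.0% (36.0–46.2) of cells with Atoh1 alone. In the relapsed tumour these shares were 57.0% (49.2–64.5) and 38.4% (33.9–43.0). Cells of step 1 with neither gene lay between, at 48.7% (45.2–52.2) in the primary and 50.2% (46.5–54.0) in the relapsed tumour. Their intervals met those of Neurod1 alone in both tumours, and that of Atoh1 alone in the primary. In step 5 the cells with Neurod1 alone were at 6.61% and 7.99%. A cell was called cycling where it had UMIs of at least 2 of 6 cycling genes at the same thinned depth.

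**Figure D4:**
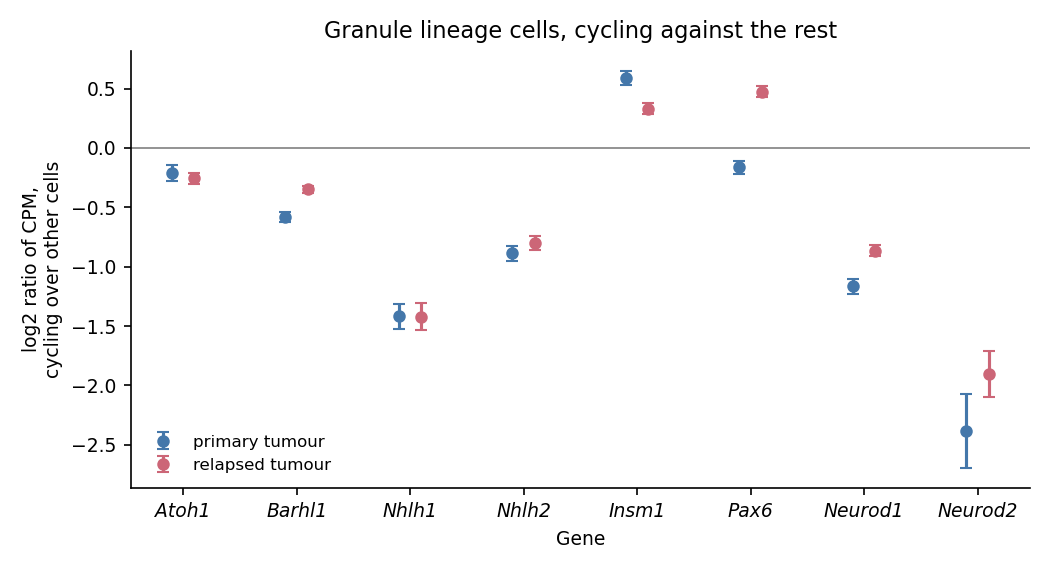
Log2 ratio of the CPM of cycling over other granule lineage cells for each gene in the primary (blue) and relapsed tumour (red), with 95% intervals from counting error only. Insm1 lies above 0 in both tumours and Pax6 on opposite sides of 0, and the other 6 genes lie below 0.

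Over the whole granule lineage, Insm1 was higher in cycling cells, at 232 CPM against 154 CPM in the primary and 330 CPM against 262 CPM in the relapsed tumour. Neurod1 (155 against 348 CPM in the primary) and Neurod2 (5.03 against 26.3 CPM) were lower there, as were Nhlh1, Nhlh2, Barhl1 and Atoh1 in both tumours. Pax6 was at 233 against 261 CPM in the primary and at 298 against 215 CPM in the relapsed tumour.

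Within the first 4 steps the order differed from that of the whole lineage for Neurod1 in both tumours and for Pax6 and Nhlh2 in the primary tumour. Pax6 was higher in cycling cells in 4 of the first 4 steps of both tumours, in step 1 at 206 against 150 CPM in the primary and 265 against 126 CPM in the relapsed tumour. Insm1 was too, in step 1 at 214 against 121 CPM and 309 against 252 CPM. Neurod1 was higher in cycling cells in 3 of these 4 steps in both tumours (106 against 82.2 CPM in step 1 of the primary). Nhlh2 was higher in cycling cells in 3 of these 4 steps of the primary tumour, at 102 against 90.6 CPM in step 1 with little between them in steps 2 and 3, and in 0 of the 4 in the relapsed tumour. Atoh1 was lower in cycling cells in all 4, at 166 against 217 CPM in step 1 of the primary and 245 against 332 CPM in the relapsed tumour.

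For each member the 3 genes with the most similar course were taken by Pearson's r of log2(CPM + 1) over 10 points, the 5 steps in each of the 2 libraries, among 6847 genes. The points share libraries and depth, so r is a description. Atoh1 was most like Cdk6, a kinase that drives entry into S phase (r = 0.996), followed by Ndufa12 and Cmtm3. Cdk6 stood at 334 CPM in step 1 and 196 CPM in step 5 of the primary tumour.

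Neurod1 was most like Grina, Clcn4 and Rtn1 (r = 0.998, 0.997 and 0.996), and Rtn1, a reticulon of the neuronal endoplasmic reticulum, was also the closest to Pax6 (0.998), followed by Top2b and Tubb2b. Neurod2 was most like Tagln3, Gm26911 and Tubb4a, Nhlh1 like Ank3, Klf7 and Gdpd5, and Nhlh2 like Plppr1, Trp53inp2 and Zfp423, with r between 0.995 and 0.999. The flat genes had other neighbours, Cnot7, Sept9 and Fopnl for Barhl1 (0.974 to 0.984) and Chchd2, Sh3bgrl and Traf4 for Insm1 (0.988 to 0.994).

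Partners and relatives of these factors were read from 3 lists, whose log2 ratios of the last over the first step were taken with 1 CPM added to both levels, unlike those of the members, and are smaller for low genes. Of 10 E protein, Id and Hes genes, 8 reached 20 CPM at some point of the path. None was 2-fold higher in the last step, 3 were 2-fold lower in the primary and 2 in the relapsed tumour. Hes1, a Notch target that represses proneural genes, had 24.3 and 1.88 CPM in steps 1 and 5 of the primary tumour (log2 ratio −3.13). Id3, which blocks E proteins, had a log2 ratio of −1.99 and Hes6 of −1.26. Id3 reached 20 CPM only in step 1 of the primary tumour (20.3 CPM). It counts among the 2 lower genes of the relapsed tumour from levels of only 3.95 CPM or less. Tcf4, an E protein that pairs with these bHLH factors, had a log2 ratio of 0.82 in the primary tumour, at 651 and 1151 CPM.

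Of 27 other neuronal transcription factors, 21 reached that level. In the last step 12 were 2-fold higher in the primary and 9 in the relapsed tumour, 8 of them in both. Etv1 was 2-fold lower in both tumours (log2 ratios −1.97 and −1.36), and Pou3f2 in the relapsed tumour alone (−1.21). The largest ratios in the primary were those of Scrt2 (3.10), St18 (2.99), Myt1 (2.98) and Meis2 (2.05). The first 3 had 2.70, 2.82 and 2.89 in the relapsed tumour, where Meis2 was too low for a ratio: it had 0.726 CPM in step 1 and was listed at 0 in steps 2 to 5, against 29.9 CPM in step 5 of the primary. Neurog1 and Lhx9 had 0 UMIs in all 10 points and Neurog2 at most 0.0912 CPM. Of 6 Notch ligands and other candidate bHLH targets, 4 reached the level and 1 was 2-fold lower in both tumours, Gli2, an effector of Hedgehog signalling (log2 ratios −3.07 and −2.50, a gene that also helped order the path). The other 3 were Cbfa2t3 at −0.89, Mfng at 0.46 and Cbfa2t2 at 0.41 in the primary. Over all 6874 genes at that level, 698 were higher and 518 lower in the primary, and 673 and 523 in the relapsed tumour.

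In the sorted libraries 0 of the 40 tested genes of these 3 lists were called. Stroma B lay above stroma A without overlap in 3 of 10 tested E protein, Id and Hes genes (Hes1, Id3 and Tcf4). The same held for 11 of 24 other factors and 1 of 6 candidate targets. Over all genes it held for 14.2%. The closest to the threshold was Hes1, at 7.76 ± 0.891 CPM in stroma A and 23.2 ± 1.61 CPM in stroma B (SD, n = 3 in each group, log2 fold change 1.58, SE 0.26, edgeR adjusted p = 0.0575). The median log2 fold changes of the lists were 0.84, 1.45 and 1.20 in that order, against −0.03 over all genes.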

How the data were processed

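The authors deposited read counts by gene symbol and FPKM for the 6 bulk libraries, and UMI counts by gene and barcode for the 2 single-cell libraries, all counts whole numbers. Seurat, STAR, Cell Ranger and mm10 are named in the submitters' processing notes without role or version. For bulk reads, neither counting tool nor strand is given in the sources used here. Column names matched sample titles, except that the bulk column of stroma A library 2 was matched by the start of its name.

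Bulk counts were filtered with filterByExpr, scaled by TMM and tested by the quasi-likelihood method of edgeR 4.0.16 in R 4.3.3, Benjamini-Hochberg adjusted over 14176 genes. DESeq2 1.42.0 and limma 3.58.1 on log2(FPKM + 1) and log2(FPKM + 0.1) were alternatives. The fit was tested on simulated data, but the outcome is not given here and no result rests on it.

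Cells with at least 500 genes and at most 10% mitochondrial UMIs were kept. Scrublet's automatic threshold marked 0 cells in both libraries and was taken as failed, so the 6% with the highest scores were removed. Cells were clustered with scanpy 1.11.5 (1994 variable genes without these 8, 30 principal components, 15 neighbours, Leiden resolution 1, no integration) and named where at least 3 markers stood at 4-fold or more, at 20 CPM and in 20% of cells, a rule set after the data were seen. Granule lineage clusters needed 3 of their markers in 20% of cells, no other class and at least 0.65 of their library's median gene number. Path steps hold equal shares of cells with both libraries weighted equally. Intervals use scipy 1.17.1.

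The genes and lists were chosen with earlier results of these data known. The 8 genes are always named. Others were named as the 3 most alike per gene or, per list, those called in bulk or the up to 4 with the largest ratio along the path in the primary tumour. Tcf4 and Hes1 in bulk, Neurog1, Neurog2 and Lhx9, and the other single values beyond that rule were added after their values were seen.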

Additional observations from a re-analysis of the deposited data

Results flagged for a closer look

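Both entries below were picked out because an effect had opposite signs in the primary and the relapsed tumour. With 1 library each, the difference between the tumours was not tested.

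Insm1 had a log2 ratio of the last over the first path step of 0.28 in the primary and −0.05 in the relapsed tumour, and the interval of the latter (−0.14 to 0.03) holds 0. Its relapsed level was highest in step 4 (325 CPM) and lower in step 5 (274 CPM), while in the primary tumour step 5 was the highest (207 CPM).

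Pax6 had a log2 ratio of cycling over other granule lineage cells of −0.16 (−0.22 to −0.11) in the primary and 0.47 (0.43 to 0.52) in the relapsed tumour. Within each of steps 1 to 4 it was higher in cycling cells in both tumours. In step 5 it was lower in cycling cells in both, at 410 against 473 CPM in the primary and 479 against 502 CPM in the relapsed tumour. Step 5 held 24.5% of the primary and 15.6% of the relapsed cells.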

How the results depend on the processing

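No paired analysis was possible because stroma A and stroma B share only 1 number in their titles. Every member kept a log2 fold change above 0 under all 12 bulk alternatives, from 0.30 (Neurod1) to 4.36 (Nhlh2). The count of genes called over the whole table moved from 94 to 1797 with DESeq2 (45.9% of them higher, against 58.5%), to 227 without the filter, and to 0 with limma on either FPKM scale (unadjusted p under 0.05 in 4136 and 4353 genes) and without both libraries of the shared number (in 1563). Leaving out each library gave 0 to 1342, the latter without stroma B replicate 3 and 0 without any other (2067 to 3781 unadjusted). The limma fits moved the median of all genes to 0.15 and 0.22.

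In single cells 6 of 8 members were higher in the relapsed tumour, with intervals that leave out 0. Among these, Neurod1 and Pax6 were at log2 ratios of only 0.06 and 0.04. The intervals cover counting error only, and the share of all genes passing this rule was not counted. With likely doublets kept 5 members passed it, and after thinning 4, where Neurod1 was at 0.013 and Pax6 reversed to −0.078. The share of Atoh1 cells with Neurod1 was 32.3% and 40.7% (primary and relapsed) at 4000 UMIs, 46.8% and 61.5% unthinned, and 2.56% and 3.13% where 2 UMIs were needed. Along the path Atoh1 was at −1.28 and −1.47 with detected genes counted, −1.65 (relapsed) with neuron genes alone, and −2.46 and −2.93 with 10 steps. Neurod1 was at 3.41 and 3.28 with neuron genes alone, 3.10 (relapsed) with detected genes counted, and 3.77 and 3.76 with 10 steps. Each kept its direction. Depth affected both shares of cells, as in co-detection, and ratios of levels, as for Pax6. Single libraries limit every comparison of the tumours.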

Other observations

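A pair of granule lineage clusters of the primary tumour, led by Hox genes, Ren1 and Meis2, was singled out after its values were seen. The larger, of 875 cells, had the highest Atoh1 (285 CPM) and Barhl1 (769 CPM) of the 7 primary clusters and the lowest Insm1 (130 CPM) and Pax6 (146 CPM). The smaller, of 413 cells, had the lowest Nhlh1 (30.6 CPM), Neurod1 (77.7 CPM) and Neurod2 (1.23 CPM). No relapsed cell was in either cluster.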
